A study of Homo sapiens with 12 samples.

Results

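The genes described here are the enzymes, carriers and regulators of glycolysis and of the pentose phosphate branch, given as a list of 32 symbols and matched to the count table by Ensembl identifier. Of these, 31 had a row among the 17786 rows of the table, and 30 were among the 13598 genes that passed the filter on low counts and were tested. PGM1 was not analysed here, and TIGAR, with 50 counts in all 12 libraries, is given by its counts. Messenger RNA was measured in K562, a cell line from chronic myelogenous leukaemia, in 3 groups of 4 libraries: no treatment, 24 h with alpha-ketobutyrate (AKB) at 2 mM, and 24 h with pyruvate at 2 mM. All were grown in RPMI medium with fetal bovine serum and glutamine. Whether libraries of the same group stem from separate cultures is not stated in the labels, and the p-values accordingly describe the scatter among these libraries alone, which could be technical. K562 is a single line, and in bulk RNA a change in the share of cells that express a gene and a change in RNA per cell cannot be told apart.

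Glycolysis splits glucose into pyruvate. Its upper steps, from hexokinase to triose phosphate isomerase, use ATP, and the GAPDH step then reduces NAD+ to NADH, so that it needs a supply of NAD+. The lower steps return ATP and end with pyruvate kinase. The pentose phosphate branch leaves the pathway at glucose 6-phosphate. Its oxidative arm makes NADPH, and its non-oxidative arm joins ribose 5-phosphate back to glycolysis. AKB has 1 methylene group more than pyruvate, and lactate dehydrogenase can reduce either 2-oxo acid while turning NADH into NAD+. The comparison of the steps before and after GAPDH, and of the pentose phosphate branch, asks how the messenger RNAs on either side of the NAD+-dependent step responded to the electron acceptors.

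Pyruvate replicates 3 and 4 stood apart from the other 10 libraries along the GC content of the genes. For each further 10 points of transcript GC (in %), their log2 levels relative to the average library were higher by 0.331 and 0.354, where the others had slopes of −0.153 to 0.014. The glycolysis and pentose phosphate genes are richer in GC than most, with a median of 53.8% (36.6% in RPE to 64.1% in PFKL) against 48.1% over all tested genes. The counts of called genes and each called change that involves pyruvate are therefore given on all 12 libraries and without these libraries. Total counts per library ran from 15353200 to 21301073. All 12 markers of the erythroid character of K562, such as the embryonic and fetal globin genes and GATA1, were above 0 in every group, and their summed level was 14487 to 16111 CPM (counts scaled to the library's size) in untreated cells, 15841 to 17590 with AKB and 12417 to 13769 with pyruvate. Of 17 markers of other cell types 14 had a row, and their summed level was 561 to 601, 583 to 645 and 604 to 805 CPM. Most of this was the epithelial markers EPCAM, KRT18, KRT8 and KRT19, at 96.8, 174, 168 and 120 CPM in untreated cells. No other of the 14 exceeded 9.11 CPM in any library. KRT8 and KRT18 stood at 266 ± 58.2 and 206 ± 25.6 CPM with pyruvate, highest in replicates 3 and 4. Of the erythroid markers, GATA1 stood at 148 ± 18 CPM untreated and 189 ± 65.5 with pyruvate, and HBG2 at 5195 ± 285 and 4117 ± 246. In pyruvate replicates 1 to 4 GATA1 stood at 142, 123, 249 and 241 CPM. By edgeR's test on all 12 libraries, HBE1 alone was higher with AKB (2140 ± 71.1 to 2864 ± 118 CPM). None was lower, and of all genes tested 1.37% rose and 0.603% fell. With pyruvate HBG1, HBG2 and ALAS2 were lower and none higher, beside 0.927% and 1.02%. Without pyruvate replicates 3 and 4 TAL1 alone was lower, beside 0.56%. The part of these shifts in the results was not tested.

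The promoters of 5 genes are shown because the results turn on them. By edgeR's test on all 12 libraries ENO2 and PFKFB4, genes of low level, were called higher with AKB and not with pyruvate. In the authors' deposited DESeq2 table PFKFB4 was also higher with pyruvate (adjusted p = 0.0469). The aldolase gene ALDOC, of moderate level, and the pyruvate kinase gene PKM were called higher with both acids. ENO1, the abundant enolase gene, was called higher with neither. Each promoter window runs from 250 bases before to 50 bases after the start of the gene. It is written 5′ to 3′ on the strand of the gene, from RefSeq on GRCh38.p14. Capitals mark ACGTG on either strand, which is the core bound by hypoxia-inducible factors and, within CACGTG, the E-box bound by factors such as MYC and USF1. ENO2 is at chr12:6914330-6914629 on the plus strand, PFKFB4 at chr3:48556754-48557053, ALDOC at chr17:28576846-28577145, PKM at chr15:72231141-72231440 and ENO1 at chr1:8878637-8878936, these 4 on the minus strand.
ENO2: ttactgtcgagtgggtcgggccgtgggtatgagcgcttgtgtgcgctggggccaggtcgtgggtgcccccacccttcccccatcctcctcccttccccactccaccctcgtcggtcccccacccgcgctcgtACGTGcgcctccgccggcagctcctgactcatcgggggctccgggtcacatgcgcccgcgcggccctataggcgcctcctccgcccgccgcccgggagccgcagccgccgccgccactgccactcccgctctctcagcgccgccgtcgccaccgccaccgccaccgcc
PFKFB4: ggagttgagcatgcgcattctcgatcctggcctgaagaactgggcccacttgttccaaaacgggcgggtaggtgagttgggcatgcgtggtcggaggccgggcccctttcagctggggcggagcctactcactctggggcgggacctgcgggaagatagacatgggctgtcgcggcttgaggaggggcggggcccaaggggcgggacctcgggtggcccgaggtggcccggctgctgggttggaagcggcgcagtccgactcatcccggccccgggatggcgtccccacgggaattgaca
ALDOC: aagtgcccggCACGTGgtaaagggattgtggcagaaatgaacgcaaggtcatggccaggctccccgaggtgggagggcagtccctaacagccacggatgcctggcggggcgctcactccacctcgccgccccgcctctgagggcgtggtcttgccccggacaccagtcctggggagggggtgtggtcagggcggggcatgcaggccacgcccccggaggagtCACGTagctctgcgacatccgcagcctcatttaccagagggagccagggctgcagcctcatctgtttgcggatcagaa
PKM: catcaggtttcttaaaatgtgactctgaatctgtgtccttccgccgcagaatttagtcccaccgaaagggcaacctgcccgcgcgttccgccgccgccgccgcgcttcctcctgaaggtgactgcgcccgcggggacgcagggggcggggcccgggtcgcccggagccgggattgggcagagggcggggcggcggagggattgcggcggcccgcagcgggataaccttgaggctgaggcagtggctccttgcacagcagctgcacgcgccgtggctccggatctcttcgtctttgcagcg
ENO1: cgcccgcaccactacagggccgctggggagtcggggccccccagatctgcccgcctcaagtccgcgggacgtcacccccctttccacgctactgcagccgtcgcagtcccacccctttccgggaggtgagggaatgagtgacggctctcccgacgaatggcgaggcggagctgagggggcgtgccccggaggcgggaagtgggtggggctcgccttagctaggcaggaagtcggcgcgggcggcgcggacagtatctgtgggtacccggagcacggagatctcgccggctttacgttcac
The ENO2 window held 1 match to ACGTG, 118 bases before the start. The ALDOC window held 3, at 240, 239 and 28 bases before the start, and the first 2 of these are the 2 strands of 1 E-box. The windows of PFKFB4, PKM and ENO1 held no such letters. Of the 35116 promoters in this RefSeq set, 21.4% held ACGTG, 7.3% held CACGTG and 45.0% held GGGCGG, the letters of a GC box, on either strand. The 30 listed genes with a promoter entry had 53 entries, since some genes have several starts, and of these 53 entries 20 held ACGTG, 6 held CACGTG and 37 held GGGCGG. Matches to ACGTG and CACGTG overlap, and a match is a description of the letters in the window.

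Levels of different genes were compared as CPM per kilobase of the longest transcript. The longest transcript need not be the form expressed here, so this order and the isozyme shares below depend on that choice. Before division by length, PGK1 (468 ± 21.4 CPM) stood above TALDO1 (356 ± 10.9 CPM), for example. Overlap in this order refers to the scatter among libraries only. In untreated cells GAPDH (949 ± 39.5, SD, n = 4) and the enolase gene ENO1 (944 ± 28.6) stood first, and their libraries overlapped. ALDOA, the main aldolase gene, followed at 379 ± 21.8, and then TALDO1, the transaldolase of the pentose phosphate branch, at 264 ± 8.10, each apart from its neighbours. TPI1 (194 ± 9.45) and PGD (192 ± 6.54) overlapped, as did PGAM1 (180 ± 3.08) and HK1 (176 ± 2.47). PKM came next at 166 ± 2.36, PGK1 at 95.7 ± 4.38 and GPI at 71.4 ± 6.30. Near the lower end were PFKFB4 at 6.07 ± 0.172, ENO3 at 5.15 ± 0.728, ENO2 at 4.91 ± 0.296 and PFKFB3 at 4.65 ± 0.476, of which the last 3 overlapped in this order. H6PD stood at 0.459 ± 0.152. ENO2 and PFKFB4, which rose with AKB, were thus among the lowest of the set.

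**Figure D1:**
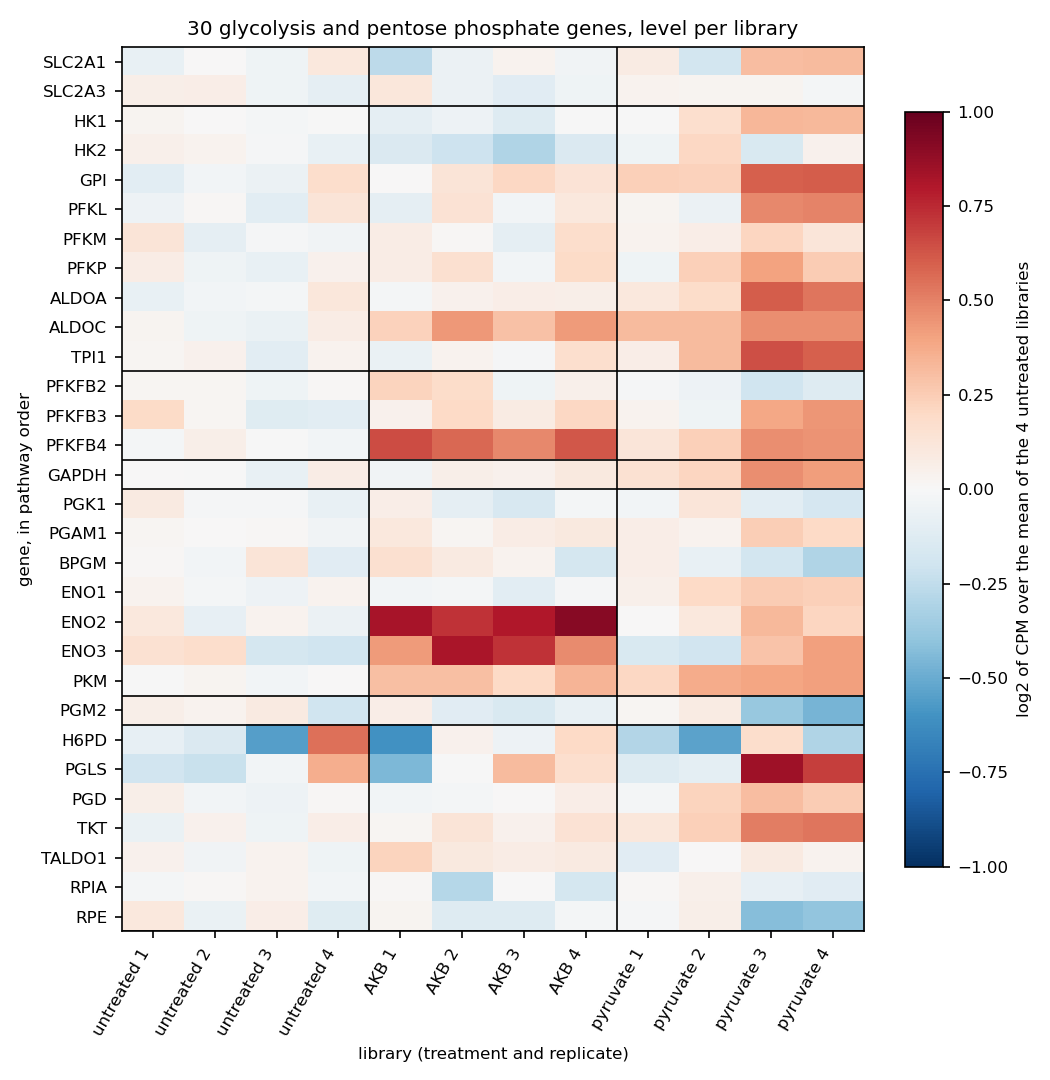
Level of each of 30 genes (rows, in pathway order, with lines between the carriers, the steps before GAPDH, the regulators of fructose 2,6-bisphosphate, GAPDH, the steps after it, PGM2 and the pentose phosphate branch) in each of 12 libraries (columns), as log2 of CPM over the mean of the 4 untreated libraries. ENO2, ENO3 and PFKFB4 are above the untreated mean in all 4 AKB libraries, and GPI, ALDOA, TPI1, TKT and PGLS are highest in pyruvate replicates 3 and 4.

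With AKB, 4 of the 30 tested genes rose and 0 fell, where 1.37% of all genes tested rose and 0.603% fell (edgeR's quasi-likelihood test with Benjamini-Hochberg adjustment, threshold 0.05). The 4 were ENO2 and PKM after the GAPDH step, ALDOC before it, and PFKFB4 among the regulators of fructose 2,6-bisphosphate. Before adjustment, 5 were higher and 1 lower at p below 0.05. The median log2 change of the 30 genes was 0.036, beside 0.0061 over all genes. Without pyruvate replicates 3 and 4, which then do not enter the shared estimate of the spread, 5 rose and 0 fell (background 4.86% and 4.31%), and with an offset for GC content 5 rose and 0 fell (background 4.62% and 3.82%). The added gene was ENO3 in both.

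With pyruvate, 4 of the 30 rose and 0 fell on all 12 libraries, where 1.02% of all genes rose and 0.927% fell. The 4 were GPI and ALDOC before the GAPDH step, GAPDH itself and PKM after it. Before adjustment, 13 were higher and 0 lower at p below 0.05, and the median log2 change was 0.18 beside −0.0082 over all genes. Without pyruvate replicates 3 and 4 PKM alone rose and 0 fell (background 0.151% and 0.56%; 9 and 0 before adjustment), and the median was 0.05. ALDOC, at 0.32 without these libraries, missed the threshold narrowly (adjusted p = 0.0544). The GC-content offset gave 6 higher and 0 lower (background 5.4% and 4.09%), namely GPI, ALDOA, ALDOC, TPI1, PKM and TKT, with a median of 0.073. Both acids were set against the same 4 untreated libraries.

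Set directly against each other, AKB gave 1 higher gene of the 30, ENO2, and 2 lower, HK1 and ENO1 (background 1.94% higher and 1.19% lower). Without pyruvate replicates 3 and 4, ENO2, ENO3 and PFKFB4 were higher with AKB and 0 were lower (background 2.52% and 1.84%; 4 and 4 before adjustment). With the GC-content offset the same 3 genes were higher and HK1, GPI, ALDOA, TPI1, ENO1 and TKT were lower (background 7.16% and 7.41%).

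**Figure D2:**
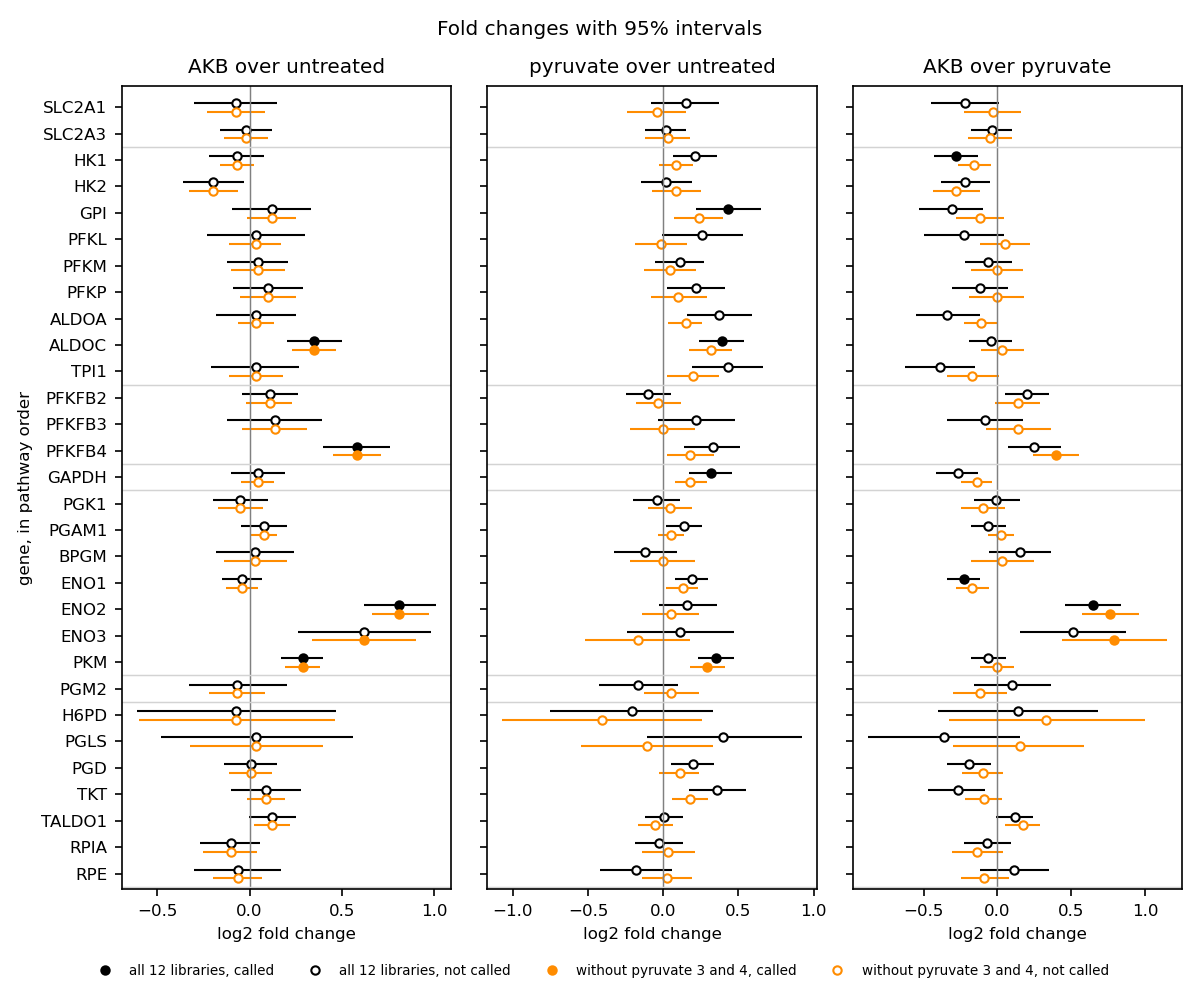
Log2 fold change (horizontal axis) with its 95% interval for each of 30 genes (vertical axis, in pathway order), on all 12 libraries (black) and without pyruvate replicates 3 and 4 (orange), with filled points for an adjusted p below 0.05. ENO2 lies at 0.81 over untreated with AKB and at 0.16 with pyruvate, and the pyruvate estimates of GPI, ALDOA and TPI1 move toward 0 when the libraries are left out.

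The glucose carriers passed no test by edgeR on all 12 libraries. In the authors' deposited DESeq2 table SLC2A1 was lower with AKB than with pyruvate (log2 −0.35, adjusted p = 0.0405). SLC2A1 (GLUT1), the widely expressed carrier, stood at 225 ± 12.5 CPM in untreated cells, 214 ± 18.3 with AKB and 249 ± 39.0 with pyruvate, and SLC2A3 (GLUT3), a high-affinity carrier, at 126 ± 7.01, 124 ± 8.53 and 127 ± 2.36. The groups of both genes overlapped. In the sum of both per kilobase, SLC2A3 held 31.7 ± 2.15% in untreated cells, 32.6 ± 3.46% with AKB and 30.1 ± 3.66% with pyruvate.

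Before the GAPDH step, 1 of 9 tested genes rose with AKB and 2 rose with pyruvate, and none fell. Of all genes tested, 1.37% rose and 0.603% fell with AKB, and 1.02% rose and 0.927% fell with pyruvate. The median log2 change was 0.035 with AKB and 0.26 with pyruvate, beside 0.0061 and −0.0082 over all genes. Without pyruvate replicates 3 and 4 none of the 9 rose with pyruvate by edgeR's test (before adjustment 4 were higher and 0 lower). The background was then 0.151% higher and 0.56% lower, and the median was 0.10 beside −0.0049 over all genes. The difference between the medians before and after GAPDH was not tested.

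Hexokinase traps glucose in the cell as glucose 6-phosphate. HK1, the more abundant form here, stood at 717, 704, 693 and 702 CPM in untreated replicates 1 to 4, at 662, 679, 644 and 702 CPM with AKB and at 702, 793, 885 and 880 CPM with pyruvate. Every AKB library was at or below the lowest pyruvate library, while pyruvate replicate 1 lay within the untreated range. HK1 was 1.21-fold lower with AKB than with pyruvate (log2 −0.28, SE 0.068, adjusted p = 0.0487), and this difference was −0.16 (adjusted p = 0.114) without pyruvate replicates 3 and 4. HK2, the inducible form, stood at 84.6, 83.8, 81.0 and 77.5 CPM in untreated cells, at 74.1, 70.9, 66.4 and 73.8 CPM with AKB and at 79.3, 94.3, 73.5 and 84.2 CPM with pyruvate. All 4 AKB libraries were below all 4 untreated ones, but the change did not pass the test (log2 −0.20, SE 0.077, adjusted p = 0.288). HK2 held 7.44 ± 0.231% of the hexokinase level per kilobase in untreated cells, 6.85 ± 0.238% with AKB and 6.63 ± 0.987% with pyruvate.

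GPI converts glucose 6-phosphate to fructose 6-phosphate. Its untreated libraries stood at 288, 304, 297 and 350 CPM, its AKB libraries at 310, 339, 357 and 341 CPM and its pyruvate libraries at 366, 364, 469 and 472 CPM. All pyruvate libraries were above all others, and replicates 3 and 4 were well above replicates 1 and 2. The rise with pyruvate was 1.35-fold (log2 0.43, SE 0.099, adjusted p = 0.0485). It was 0.24 (adjusted p = 0.18) without replicates 3 and 4 and 0.34 (adjusted p = 0.0111) with the GC-content offset. Leaving out any of untreated replicates 1 to 3, any AKB library, or pyruvate replicate 3 or 4 also ended the call.

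Phosphofructokinase, the committed step, is built from the products of PFKL, PFKM and PFKP. None of the 3 passed the test in any comparison by edgeR's test on all 12 libraries (PFKP was higher with pyruvate at an unadjusted p of 0.029). PFKP, the platelet form, held most of the summed level per kilobase, with 55.9 ± 0.524% in untreated cells, 56.9 ± 0.446% with AKB and 56.3 ± 2.6% with pyruvate. This share rests on longest transcripts of 2769 bases for PFKP and 6007 for PFKL. In CPM, PFKP stood at 100 ± 4.95 untreated, 107 ± 7.26 with AKB and 116 ± 14.2 with pyruvate, close to PFKL. PFKL, the liver form, stood at 96.9 ± 6.87, 99.3 ± 7.36 and 116 ± 23.6 CPM in these groups, and its 2 higher pyruvate libraries, at 135 and 137 CPM, were replicates 3 and 4. PFKM, the muscle form, stood at 44.3 ± 2.87, 45.7 ± 3.54 and 47.7 ± 2.62 CPM.

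The aldolases split fructose 1,6-bisphosphate. ALDOC, the form known from brain, stood at 58.9, 56.2, 55.2 and 60.7 CPM in untreated cells, at 67.9, 77.9, 70.8 and 77.6 CPM with AKB and at 71.8, 72.1, 79.7 and 79.7 CPM with pyruvate. Both treated groups lay above all untreated libraries and overlapped each other. ALDOC rose 1.27-fold with AKB (log2 0.35, SE 0.069, adjusted p = 0.0224) and 1.31-fold with pyruvate (log2 0.39, SE 0.068, adjusted p = 0.0206), and the change with pyruvate was 0.32 (adjusted p = 0.0544) without pyruvate replicates 3 and 4. The acids did not differ by the test (log2 −0.044, 95% interval −0.19 to 0.10). The AKB call ended without any 1 of untreated replicates 1 to 3 or AKB replicates 2 to 4 (highest adjusted p 0.0967), and the pyruvate call without any 1 of untreated replicates 1 to 3 or pyruvate replicates 3 and 4 (highest 0.102, in the fit to the 8 libraries alone). ALDOA stood at 910, 942, 945 and 1039 CPM in untreated cells, at 944, 988, 1002 and 998 CPM with AKB and at 1032, 1091, 1458 and 1390 CPM with pyruvate. Its change with pyruvate was 0.37 (SE 0.098, adjusted p = 0.0641) and 0.15 (adjusted p = 0.244) without replicates 3 and 4, which were the highest. ALDOC held 7.15 ± 0.330% of the aldolase level per kilobase in untreated cells, 8.73 ± 0.435% with AKB and 7.33 ± 0.772% with pyruvate.

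TPI1 interconverts the triose phosphates that aldolase makes. It stood at 341 ± 16.7 CPM in untreated cells, 349 ± 24.4 with AKB and 459 ± 82.7 with pyruvate, where replicates 3 and 4 were at 534 and 517 CPM. The change with pyruvate was 0.43 (adjusted p = 0.0626) on all libraries and 0.20 (adjusted p = 0.289) without replicates 3 and 4. A processed copy of TPI1 with a row of its own held counts equal to 0.681% of those of TPI1, and reads of near-identical copies may be divided between the rows. On chromosome 12, TPI1 lies 42.8 kb from ENO2 and 328.7 kb from GAPDH.

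Fructose 2,6-bisphosphate activates phosphofructokinase, and the PFKFB enzymes make and remove it. PFKFB4, an isoform known from testis and tumours, stood at 21.4, 22.6, 21.7 and 21.3 CPM in untreated cells, at 34.1, 32.3, 30.3 and 33.5 CPM with AKB and at 23.7, 25.7, 30.1 and 29.7 CPM with pyruvate. All 4 AKB libraries were above all pyruvate libraries, and these were above all untreated ones. The rise with AKB was 1.5-fold (log2 0.58, SE 0.084, adjusted p = 0.00496), and it passed the test under all 23 alternatives tried. With pyruvate the change was 0.33 (SE 0.084, adjusted p = 0.0626), and 0.18 (adjusted p = 0.281) without replicates 3 and 4. The authors' deposited DESeq2 table called PFKFB4 higher with pyruvate (log2 of untreated over pyruvate −0.31, adjusted p = 0.0469). AKB exceeded pyruvate by 0.25 (95% interval 0.071 to 0.43, adjusted p = 0.102) on all libraries and by 0.40 (adjusted p = 0.0157) without replicates 3 and 4.

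The other isoforms passed no test by edgeR on all 12 libraries. PFKFB2, the isoform known from heart, stood at 68.4, 68.2, 65.3 and 67.9 CPM in untreated cells, at 78.5, 76.5, 65.6 and 69.9 CPM with AKB and at 66.9, 65.0, 58.9 and 61.7 CPM with pyruvate. PFKFB3, the isoform with the highest kinase activity, stood at 24.0, 21.3, 19.3 and 19.5 CPM, at 21.7, 24.2, 22.3 and 24.3 CPM and at 21.6, 20.4, 27.5 and 28.6 CPM in the same order. The groups of both genes overlapped. As a share of the 3 per kilobase, PFKFB4 held 30 ± 1.09% in untreated cells, 37.2 ± 0.939% with AKB and 34.6 ± 2.14% with pyruvate, and PFKFB2 held 47.0 ± 0.916%, 41.9 ± 1.65% and 40.8 ± 4.50%.

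TIGAR, a phosphatase that lowers fructose 2,6-bisphosphate and directs glucose toward the pentose phosphate branch, was close to the limit of these libraries. It had 0, 1, 0 and 0 counts in untreated replicates 1 to 4, 7, 5, 3 and 9 with AKB, and 3, 11, 7 and 4 with pyruvate. Every treated library had more counts than every untreated one. The summed counts of 1, 24 and 25 gave a ratio of summed CPM of 25.9 for AKB over untreated (95% exact interval 4.22 to 1065) and 23.2 for pyruvate (3.79 to 951), intervals that cover counting error only. With no filter on low counts edgeR gave an adjusted p of 0.0477 for AKB and 0.0556 for pyruvate.

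GAPDH itself stood at 1787, 1774, 1689 and 1870 CPM in untreated cells, at 1741, 1855, 1836 and 1903 CPM with AKB and at 1973, 2064, 2455 and 2374 CPM with pyruvate. The untreated and AKB libraries overlapped, and all pyruvate libraries were above both groups. With AKB the log2 change was 0.043 (95% interval −0.10 to 0.19, adjusted p = 0.857). With pyruvate GAPDH rose 1.25-fold (log2 0.32, SE 0.068, adjusted p = 0.0406), but the change was 0.18 (adjusted p = 0.117) without replicates 3 and 4 and 0.12 (adjusted p = 0.184) with the GC-content offset. The call also ended without any 1 of the 4 untreated or 4 AKB libraries, or without pyruvate replicate 3 or 4. It was kept in 8 of the 23 alternatives. Set directly against pyruvate, AKB gave a log2 difference of −0.27 (SE 0.068, adjusted p = 0.0503). It was −0.14 (adjusted p = 0.126) without pyruvate replicates 3 and 4. Rows of 6 GAPDH copies held counts equal to 0.0463% of those of GAPDH.

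After the GAPDH step, 2 of 7 tested genes rose with AKB and 1 with pyruvate, and none fell. The background was again 1.37% higher and 0.603% lower with AKB, and 1.02% and 0.927% with pyruvate. The median log2 change was 0.076 with AKB and 0.14 with pyruvate, and 0.049 with pyruvate when replicates 3 and 4 were left out. Over all genes these medians were 0.0061, −0.0082 and −0.0049. The spread among the 7 was wide with AKB, from −0.05 to 0.81, with PGK1 at the lower end and ENO2 at the upper.

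**Figure D3:**
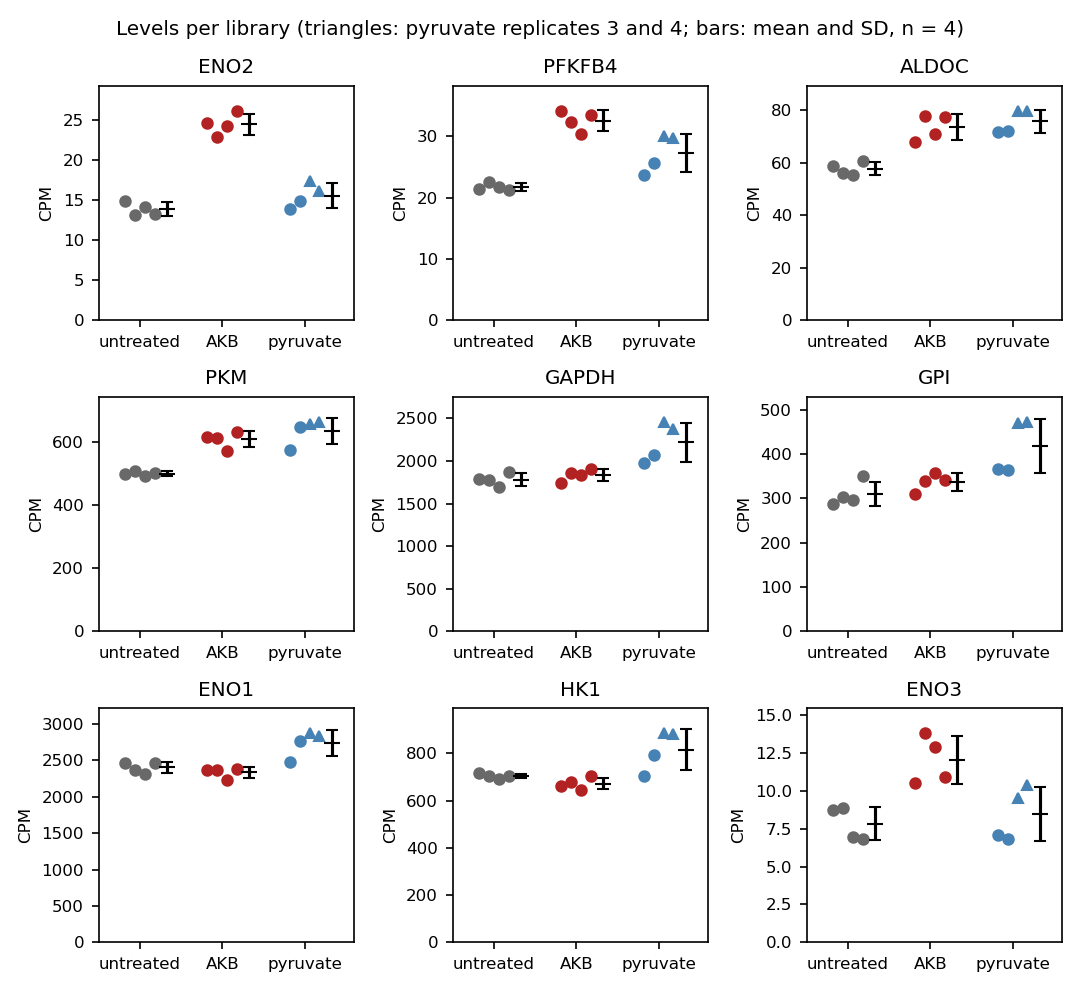
CPM (vertical axis, from 0) in each library for 9 genes, by group, with pyruvate replicates 3 and 4 as triangles and the mean with its SD (n = 4) as a bar. The 4 AKB libraries of ENO2 sit between 22.9 and 26.1 CPM, above every other library, while those of ENO1 sit between 2230 and 2386 CPM, below every pyruvate library.

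Enolase makes phosphoenolpyruvate and has 3 genes in the set. ENO2, the gamma form known from neurons, stood at 14.9, 13.1, 14.2 and 13.3 CPM in untreated cells, at 24.6, 22.9, 24.2 and 26.1 CPM with AKB and at 13.9, 14.9, 17.4 and 16.1 CPM with pyruvate. The 4 AKB libraries lay above all 8 others, and the pyruvate and untreated libraries overlapped. ENO2 rose 1.76-fold with AKB (log2 0.81, SE 0.089, 95% interval 0.62 to 1.01, adjusted p = 0.000914), which was the largest change of the 30 genes in that comparison and passed the test under all 23 alternatives. With pyruvate its change was 0.16 (95% interval −0.029 to 0.36, adjusted p = 0.229). The direct test put AKB 1.57-fold above pyruvate (log2 0.65, SE 0.089, adjusted p = 0.00613; 0.76, adjusted p = 0.00285, without pyruvate replicates 3 and 4). This call was lost in 1 of 23 alternatives, the fit to the 8 libraries alone (adjusted p = 0.0706).

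ENO3, the beta form known from muscle, stood at 8.71, 8.87, 6.94 and 6.82 CPM in untreated cells, at 10.5, 13.8, 12.9 and 10.9 CPM with AKB and at 7.05, 6.85, 9.55 and 10.4 CPM with pyruvate. All 4 AKB libraries were again above all 8 others. The change with AKB was 0.62 (SE 0.16) and did not pass the test on all 12 libraries (adjusted p = 0.0877), but it passed without pyruvate replicates 3 and 4 (adjusted p = 0.0139) and with the GC-content offset (log2 0.56, adjusted p = 0.0177). ENO3 exceeded its pyruvate level by 0.51 (adjusted p = 0.0951) on all libraries and by 0.79 (adjusted p = 0.0234) without replicates 3 and 4.

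ENO1, the alpha form that most cells use, moved differently. It stood at 2471, 2372, 2318 and 2459 CPM in untreated cells, at 2365, 2369, 2230 and 2386 CPM with AKB and at 2485, 2763, 2875 and 2837 CPM with pyruvate. The AKB libraries overlapped the untreated ones (log2 −0.041, 95% interval −0.15 to 0.067) and were all below the pyruvate libraries. ENO1 was 1.17-fold lower with AKB than with pyruvate (log2 −0.23, SE 0.05, adjusted p = 0.0369), and the difference was −0.17 (adjusted p = 0.0789) without pyruvate replicates 3 and 4. The calls of ENO1 and HK1 in this comparison ended without any 1 of the 4 untreated or 4 AKB libraries, or without pyruvate replicate 3 or 4. Of the 23 alternatives, 8 kept the ENO1 call and 7 kept the HK1 call. Per kilobase, ENO2 held 0.515 ± 0.0312% of the enolase level in untreated cells, 0.925 ± 0.0517% with AKB and 0.506 ± 0.0253% with pyruvate. The share of ENO3 was 0.540 ± 0.0743%, 0.851 ± 0.123% and 0.510 ± 0.0863%. ENO1 held 98.9 ± 0.0823%, 98.2 ± 0.112% and 99.0 ± 0.104%, so that ENO1 made up nearly all of the enolase message in each group.

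Pyruvate kinase closes the pathway. PKM stood at 498, 508, 491 and 502 CPM in untreated cells, at 615, 614, 573 and 633 CPM with AKB and at 576, 646, 657 and 663 CPM with pyruvate. All 8 treated libraries were above all 4 untreated ones, and the treated groups overlapped. PKM rose 1.22-fold with AKB (log2 0.29, SE 0.054, adjusted p = 0.0196) and 1.27-fold with pyruvate (log2 0.35, SE 0.054, adjusted p = 0.0115), and without pyruvate replicates 3 and 4 the change with pyruvate was 0.29 (adjusted p = 0.0326). The acids did not differ by the test (log2 −0.062, 95% interval −0.18 to 0.057). The AKB call ended without any 1 of the 4 untreated libraries or of AKB replicates 1, 2 and 4 (highest adjusted p 0.0811), and the pyruvate call without any 1 of untreated replicates 1 to 3 (highest 0.0871, in the fit to the 8 libraries alone). Gene counts do not tell the M1 and M2 splice forms of PKM apart. PKLR, the pyruvate kinase gene of red cells and liver, stood at 148 ± 13.7, 159 ± 8.69 and 163 ± 36.2 CPM and was called in no comparison.

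The remaining lower steps passed no test by edgeR on all 12 libraries. PGK1, which makes the first ATP after GAPDH, stood at 468 ± 21.4 CPM in untreated cells, 452 ± 30.4 with AKB and 454 ± 39.2 with pyruvate. PGAM1, the phosphoglycerate mutase, stood at 329 ± 5.63, 347 ± 8.85 and 362 ± 25.4 CPM, and 3 copies of it with rows of their own held 0.473% of its counts. BPGM, which makes the 2,3-bisphosphoglycerate of red cells, stood at 33.8 ± 2.37, 34.6 ± 3.30 and 31.2 ± 3.34 CPM. All pyruvate libraries of PGAM1 were above all untreated ones, and its change was 0.14 (adjusted p = 0.136), and 0.051 (adjusted p = 0.61) without replicates 3 and 4.

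PGM2, a phosphopentomutase that also interconverts glucose phosphates, stood at 79.9 ± 7.09 CPM in untreated cells, 76.4 ± 5.22 with AKB and 71.2 ± 13.5 with pyruvate. Its pyruvate replicates 3 and 4 were the lowest libraries, at 61.5 and 57.8 CPM, against 81.2 and 84.5 CPM in replicates 1 and 2. Its transcript has 39.9% GC, the lowest of the set after RPE.

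None of the 7 tested genes of the pentose phosphate branch was called in any of the 3 comparisons on all 12 libraries by edgeR's test. Of all genes tested, 0.603% to 1.94% were called in 1 direction in these comparisons. At an unadjusted p below 0.05 there were 0 with AKB, 2 higher with pyruvate and 2 lower with AKB than with pyruvate. DESeq2's Wald test on the same libraries called PGD and TKT higher with pyruvate than in untreated cells (adjusted p = 0.0378 and 0.00423) and lower with AKB than with pyruvate (adjusted p = 0.0412 and 0.0287). The share of all genes that DESeq2's test called was not taken, so these calls cannot be read as particular to the branch. DESeq2's test was not run without pyruvate replicates 3 and 4, and edgeR's test called neither gene without them. The median log2 change was 0.0055 with AKB and 0.0043 with pyruvate, and 0.023 with pyruvate when replicates 3 and 4 were left out. Over all genes these medians were 0.0061, −0.0082 and −0.0049.

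In the oxidative arm, PGD, which makes NADPH and ribulose 5-phosphate, stood at 362 ± 12.3 CPM in untreated cells, 363 ± 10.8 with AKB and 415 ± 39.5 with pyruvate. Its change with AKB was 0.0055 with a 95% interval of −0.14 to 0.15. With pyruvate it was 0.20 (SE 0.067, adjusted p = 0.102), and 0.11 (adjusted p = 0.478) without replicates 3 and 4. PGLS, the lactonase before it, stood at 18.8 ± 3.73, 19.3 ± 4.08 and 24.8 ± 8.61 CPM, and its pyruvate libraries parted most of all, with 17.2 and 17.6 CPM in replicates 1 and 2 and 33.8 and 30.4 CPM in replicates 3 and 4. H6PD, an enzyme of the endoplasmic reticulum that makes NADPH there, stood at 4.2 ± 1.39, 3.99 ± 0.875 and 3.62 ± 0.794 CPM, and its interval with AKB was wide, from −0.61 to 0.47.

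In the non-oxidative arm, transketolase, TKT, stood at 271, 293, 275 and 297 CPM in untreated cells, at 288, 311, 293 and 314 CPM with AKB and at 308, 335, 405 and 412 CPM with pyruvate. All pyruvate libraries were above the untreated ones, and the change was 0.36 (SE 0.088, adjusted p = 0.0553). It was 0.21 with the GC-content offset (adjusted p = 0.0102) and 0.18 without pyruvate replicates 3 and 4 (adjusted p = 0.18). TALDO1, its partner transaldolase, stood at 356 ± 10.9, 387 ± 19.2 and 357 ± 20.9 CPM. All 4 of its AKB libraries were above all untreated ones, but the change of 0.12 did not pass the test (adjusted p = 0.404). RPIA, the ribose 5-phosphate isomerase, stood at 58.7 ± 1.19, 54.6 ± 5.42 and 57.4 ± 3.11 CPM, and RPE, the ribulose 5-phosphate epimerase, at 59.2 ± 4.35, 56.6 ± 3.07 and 52.3 ± 9.05 CPM.

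The genes were also counted by whether the libraries of 2 groups overlapped, which needs no model, on all 12 libraries. All 4 AKB libraries were above all untreated ones for 6 of the 30 genes and below them for 1, beside 8.74% and 8.41% of all genes tested. For pyruvate these numbers were 9 and 0, beside 4.89% and 6% of all genes. AKB libraries were all above the pyruvate libraries for 3 genes and all below them for 5, beside 7.08% and 4.54%.

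Pyruvate replicates 3 and 4 differed from replicates 1 and 2 for these genes along GC content. The log2 ratio of the mean of replicates 3 and 4 to that of replicates 1 and 2 was above 0 for 22 of the 30 genes, with a median of 0.20 beside −0.018 over all genes. Across the 30 genes, which share these libraries and are no independent replicates, it went with transcript GC with a Pearson r of 0.888 and a Spearman rho of 0.805, and across 13011 genes with an r of 0.697 and a rho of 0.771. PGLS had the highest ratio (0.88), and PGM2 (−0.47) and RPE (−0.43) had the lowest. ALDOC (0.15), PKM (0.11) and ENO1 (0.12) differed less between the pairs of libraries.

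**Figure D4:**
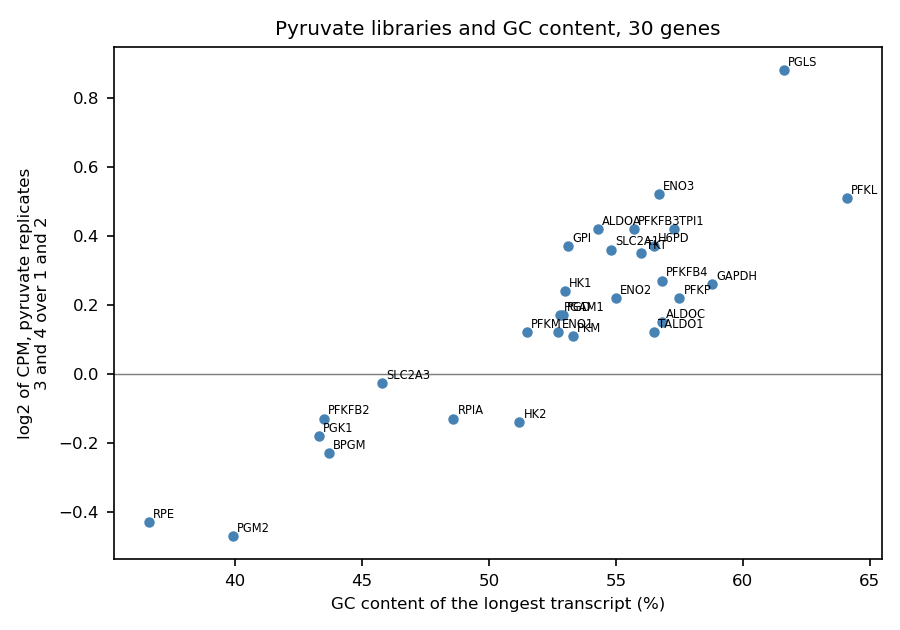
GC content of the longest transcript (horizontal axis, %) and log2 of the mean CPM of pyruvate replicates 3 and 4 over that of replicates 1 and 2 (vertical axis) for each of 30 genes. The ratio is below 0 for RPE, PGM2, PGK1, PFKFB2, BPGM, SLC2A3, RPIA and HK2 and above 0 for the other 22 genes.

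Of 60 further genes of glucose metabolism outside the 32, 49 had a row and 37 were tested. With AKB 2 rose and 2 fell, beside 1.37% and 0.603% of all genes tested. With pyruvate 0 rose and 2 fell, beside 1.02% and 0.927%, and against pyruvate 3 were higher with AKB and 0 lower, beside 1.94% and 1.19%. These numbers, leaving out pyruvate replicates 3 and 4, were 5 and 2, 0 and 2, and 6 and 0, beside 4.86% and 4.31%, 0.151% and 0.56%, and 2.52% and 1.84%. PYGL, the glycogen phosphorylase of liver, stood at 9.50 ± 1.07 CPM in untreated cells, 14.8 ± 1.58 with AKB and 9.61 ± 1.18 with pyruvate, and rose with AKB (log2 0.64, adjusted p = 0.0212). SLC2A4 (GLUT4), the insulin-responsive carrier, stood at 3.14 ± 0.492, 5.31 ± 0.218 and 2.87 ± 0.661 CPM and also rose with AKB (log2 0.76, adjusted p = 0.0492). Both were higher with AKB than with pyruvate (0.62, adjusted p = 0.0259, and 0.88, adjusted p = 0.0265), as was PGM2L1, a glucose 1,6-bisphosphate synthase (0.63, adjusted p = 0.0159). These differences, leaving out pyruvate replicates 3 and 4, were 0.74 for PYGL, 1.17 for SLC2A4 and 0.50 for PGM2L1 (adjusted p = 0.0194, 0.011 and 0.0304). TXNIP, an inhibitor of glucose uptake, fell with AKB (log2 −0.67, adjusted p = 0.00104) and with pyruvate (−0.68, adjusted p = 0.00115), from 202 ± 6.46 to 127 ± 6.19 and 126 ± 13.5 CPM. PCK2, the mitochondrial phosphoenolpyruvate carboxykinase, fell with both as well (−0.62, adjusted p = 0.0326, and −0.74, adjusted p = 0.0206), from 58.7 ± 0.271 to 38.1 ± 2.52 and 35.1 ± 8.17 CPM. The changes with pyruvate, leaving out its replicates 3 and 4, were −0.56 for TXNIP (adjusted p = 0.000436) and −1.06 for PCK2 (adjusted p = 1.97e-05). LDHA, the lactate dehydrogenase subunit, stood at 993 ± 32.8, 955 ± 35.2 and 967 ± 131 CPM and was not called. Of 17 regulators of these pathways 15 were tested. ATF4 was the only one called on all 12 libraries without a GC-content offset, where 0.603% of all genes fell with AKB and 0.927% with pyruvate. It was lower with AKB (log2 −0.50, adjusted p = 0.0023) and with pyruvate (−0.40, adjusted p = 0.0174; −0.51, adjusted p = 0.000392, without pyruvate replicates 3 and 4) than in untreated cells. With the offset, ARNT was also higher and NFE2L2 lower with AKB (background 4.62% and 3.82%), and USF2 was higher with pyruvate (5.4%). Against pyruvate, MLXIPL was then higher and USF2 lower with AKB (7.16% and 7.41%). Without pyruvate replicates 3 and 4, ARNT, the partner of the hypoxia-inducible factors (log2 0.24, adjusted p = 0.0124), and MLXIPL, the carbohydrate-response factor ChREBP (0.49, adjusted p = 0.0236), were also higher with AKB than in untreated cells, and SP1 (−0.19, adjusted p = 0.0446) and NFE2L2 (−0.37, adjusted p = 0.00091) were lower, so that 2 were higher and 3 lower of the 15, beside 4.86% and 4.31% of all genes. Without these libraries MLXIPL was also higher and NFE2L2 lower with AKB than with pyruvate (background 2.52% and 1.84%). HIF1A stood at 69.3 ± 3.65, 69.2 ± 4.75 and 57.4 ± 9.46 CPM, and MYC at 238 ± 19.2, 248 ± 19.5 and 260 ± 34.4 CPM.

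In the authors' deposited tables, whose fold changes divide the group named first by the other, 4 of the 30 genes were lower in untreated cells than with AKB and 0 were higher, beside 2.73% and 2.16% of the genes with an adjusted p. The log2 fold change of ENO2 in the authors' deposited table was −0.75 (adjusted p = 1.87e-10), that of PFKFB4 −0.53 (0.000283), that of ALDOC −0.28 (0.00167) and that of PKM −0.30 (1.63e-07). For untreated over pyruvate the authors' deposited table had 7 lower and 0 higher of the 30, beside 7.14% and 4.88%. Among the 7, GAPDH was at −0.29 (0.00133) and PFKFB4 at −0.31 (0.0469). For AKB over pyruvate the authors' deposited table had 1 higher and 6 lower, beside 4.32% and 5.73%. ENO2 was at 0.66 (4.95e-08), ENO1 at −0.15 (0.00402), HK1 at −0.24 (0.00508) and GAPDH at −0.25 (0.00895).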

How the data were processed

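Messenger RNA of 12 libraries was measured from poly(A)-selected RNA, per the labels' protocols. The authors deposited estimated counts by gene. Tools listed in the submitters' processing notes are DESeq2 1.26.0, R 3.6.3 and Salmon 1.2.1. Neither the genome build nor the annotation is given in the sources used here. Per the file headers, the authors also deposited tables of their comparisons with a mean normalised signal, the log2 fold change and its error, a test statistic (score) and the p-value before and after adjustment.

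The estimated counts were rounded, which changed no value. Genes were kept by filterByExpr (minimum count 10), which removed 4188 of 17786. With R 4.3.3 and edgeR 4.0.16, TMM-scaled counts of all 12 libraries were fitted with 1 term per group, and edgeR's quasi-likelihood test gave 3 contrasts, with Benjamini-Hochberg adjustment over all 13598 genes (threshold 0.05). CPM use TMM-scaled library sizes. Symbols matched 16933 identifiers (95.2%) and GC content and transcript length, from the longest GENCODE 29 transcript, 16904 (95.0%). Alternatives used other scalings and filters, DESeq2 1.42.0, limma 3.58.1 (voom), a GC-content offset, a replicate block, the 8 libraries of a contrast alone, and libraries left out. Genes called in a contrast, GAPDH and their isozymes are given per library, and the others by group mean and SD. The genes, lists and this rule were chosen with earlier results of these data known.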

Additional observations from a re-analysis of the deposited data

Results flagged for a closer look

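In 4 of 93 groups of 4 libraries (31 genes in 3 groups) 1 library lay farther from the others than Dixon's critical value at the 95% level allows, and chance alone does this in about 1 group in 20. TPI1 was lowest in untreated replicate 3, at 317 CPM against 347 to 352 CPM in the others. ENO1 was lowest in AKB replicate 3, at 2230 CPM against 2365 to 2386 CPM. TALDO1 was highest in AKB replicate 1, at 415 CPM against 374 to 380 CPM. TIGAR was highest in untreated replicate 2, at 0.0612 CPM, which is its single count in that group.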

How the results depend on the processing

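The counts of called genes among the 30 varied with the processing, and the cause was not tested. The share of all genes called in 1 direction also varied, from 0.151% to 7.41% in the fits above where it is given. For the other alternatives this share was not taken, so their counts cannot be read as particular to these genes. For AKB against untreated, 1 gene was lower in the fit to the 8 libraries alone. For pyruvate against untreated, the number higher was 2 with no filter on low counts, 11 by DESeq2's Wald test, 0 with the 8 libraries alone and 1 without pyruvate replicates 3 and 4. For AKB against pyruvate, the number higher was 2 by DESeq2's Wald test, 3 with the GC-content offset, 4 with the replicate block and the offset together, 0 with the 8 libraries alone and 3 without pyruvate replicates 3 and 4. The number lower was 0 with library size alone, with no filter, with the 8 libraries alone and without pyruvate replicates 3 and 4, 1 with limma-voom, 9 by DESeq2's Wald test, 6 with the GC-content offset and 6 with the block and the offset. The median log2 difference before the GAPDH step was then −0.112 without pyruvate replicates 3 and 4. With 1 library left out at a time, the number higher ran from 2 to 4 for AKB and from 0 to 12 for pyruvate against untreated, and the number lower from 0 to 8 for AKB against pyruvate. The medians ran from −0.039 to 0.107 (pentose phosphate, AKB against untreated) and, for AKB against pyruvate, from −0.306 to −0.216 before GAPDH, from −0.056 to 0.051 after it and from −0.120 to −0.016 in the pentose phosphate branch.

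With the replicate number as a block, 0 genes were lower with AKB than with pyruvate. Same-numbered libraries of 2 groups correlated at −0.16 to 0.292, so the numbers are not taken to pair the libraries.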
